A study of Mus musculus with 18 samples.

Results

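The messages of 10 plasma proteins tied to the acute phase of inflammation were followed mouse by mouse. They were taken by gene symbol from the deposited table of liver RNA sequencing, and all 10 were found among its 15052 genes: the serum amyloid A genes *Saa1*, *Saa2* and *Saa3*, the orosomucoid genes *Orm1* and *Orm2*, the scavenger genes *Hp* and *Hpx*, the siderophore-binding gene *Lcn2*, and the pentraxin genes *Apcs* and *Crp*. The liver of 18 C57BL/6J mice, labelled female and 10–12 weeks old, was sequenced in 4 groups, with 4 WT and 5 *Apoe* KO mice that were pair-fed, and 5 WT and 4 *Apoe* KO mice that were EtOH-fed. The KO mice lack *Apoe* in the whole body, so that no cell type was singled out. After 5 days of acclimation, EtOH-fed mice received ethanol at 5% (v/v) in liquid feed over 10 days and a gavage of 5 g/kg ethanol on day 11, while pair-fed mice took an isocaloric diet and 9 g/kg dextrin maltose. All livers were taken 9 h after the gavage, and there were no ungavaged or untreated mice. Each mouse is 1 sample.

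The acute-phase response is the change in the set of proteins that hepatocytes secrete when cytokines from macrophages and other cells reach them. Interleukin-6 acts through its receptor, gp130 and STAT3, and interleukin-1 and tumour necrosis factor act through NF-kappaB and C/EBP factors. Serum amyloid A and orosomucoid are the classic strongly induced proteins in mice, haptoglobin and hemopexin bind free haemoglobin and haem, and lipocalin 2 withholds iron from bacteria by binding their siderophores. Serum amyloid P (*Apcs*) is the main acute-phase pentraxin of the mouse, and C-reactive protein (*Crp*), the human counterpart in that role, responds little in mice.

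The values are read counts that the authors brought to almost the same total, 32267493 to 32292618 in each mouse. They are called normalized counts here. In pair-fed WT mouse 1, where 1 read was worth 5.75 normalized counts, about 5610000 reads on genes had been counted. This was the lowest depth that could be estimated. Mouse 1 of the EtOH-fed KO group went against its label as female. Its *Xist* value was 826, against 15227 to 30379 in the other 17 mice, and its value for the Y-linked *Ddx3y* was 1077, against 2 to 118. Values without this mouse are given beside the results that it moves. The tissue held its defining hepatocyte message, with *Alb* between 1547096 and 3032672 in every mouse. *Apoe*, the targeted gene, was between 611230 and 798431 in the WT mice and between 8586 and 108651 in the KO mice.

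On GRCm38, *Saa3* (chromosome 7, 46711998 to 46715700, minus strand), *Saa1* (46740497 to 46742980, minus strand) and *Saa2* (46751790 to 46754313, plus strand) form 1 cluster, with *Saa4*, a constitutive member of the family, between *Saa3* and *Saa1* (46727998 to 46732603). The cluster lies 27.0 Mb from *Apoe*, and *Hpx* (105591613 to 105600137) lies on the same chromosome 85.9 Mb from it. *Orm1* (chromosome 4, 63344560 to 63348163), *Orm3* (63356162 to 63359511) and *Orm2* (63362449 to 63365878) are neighbours on the plus strand. *Lcn2* lies on chromosome 2 (32384633 to 32388252, minus strand) and *Hp* on chromosome 8 (109575128 to 109579172, minus strand). *Apcs* (172893961 to 172895041, minus strand) and *Crp* (172698055 to 172833031, plus strand) lie near each other on chromosome 1, and *Crp* overlaps the gene model Gm38051 on its own strand. The principal transcripts of *Saa1* and *Saa2* were 93.5% identical, and 9.11% of the 50-base stretches of *Saa1* also occurred in *Saa2*. For *Orm1* and *Orm2* these figures were 91.0% and 20.4%. Reads from such stretches could have been split between the copies or dropped in counting, so the division of signal within each pair is less certain than its sum.

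The start-site regions of members whose levels differed between groups are shown as the 150 bases before the RefSeq start (GRCm38.p6), because factors that act on acute-phase genes bind there. Capitals mark matches to the C/EBP core TTNNGNAA on either strand.

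Saa1 (chr7:46742981-46743130, minus strand): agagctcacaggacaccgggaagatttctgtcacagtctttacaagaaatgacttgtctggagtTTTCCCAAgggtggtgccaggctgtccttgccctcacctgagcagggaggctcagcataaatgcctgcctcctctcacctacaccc
Saa2 (chr7:46751683-46751832, plus strand): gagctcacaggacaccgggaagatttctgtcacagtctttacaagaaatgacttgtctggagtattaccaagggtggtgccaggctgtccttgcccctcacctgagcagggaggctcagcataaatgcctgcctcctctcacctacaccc
Saa3 (chr7:46715677-46715826, minus strand): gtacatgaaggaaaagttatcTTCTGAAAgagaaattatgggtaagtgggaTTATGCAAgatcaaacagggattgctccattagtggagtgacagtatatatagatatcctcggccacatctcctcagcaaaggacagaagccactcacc
Orm2 (chr4:63362299-63362448, plus strand): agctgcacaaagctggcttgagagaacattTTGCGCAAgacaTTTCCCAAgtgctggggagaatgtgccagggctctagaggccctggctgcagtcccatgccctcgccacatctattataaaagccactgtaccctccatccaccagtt
Lcn2 (chr2:32387740-32387889, minus strand): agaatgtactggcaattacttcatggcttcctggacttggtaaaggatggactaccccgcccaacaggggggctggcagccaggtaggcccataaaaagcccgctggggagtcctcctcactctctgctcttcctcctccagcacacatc
Crp (chr1:172697906-172698055, plus strand): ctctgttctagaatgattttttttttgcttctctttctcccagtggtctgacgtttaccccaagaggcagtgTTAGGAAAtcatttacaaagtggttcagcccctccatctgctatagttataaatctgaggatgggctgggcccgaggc

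The *Saa1* and *Saa2* stretches were 98.0% identical, with 2 mismatches and 1 gap, whereas those of *Saa1* and *Saa3* were 46.8% identical. In the RefSeq table of regions from 250 bases before to 50 bases after the start, which holds 8 of the 10 genes (not *Orm1* and *Hp*), the letters TTNNGNAA occurred in 7 of 8, against 40.7% of all 32851 regions. The STAT core TTCNNNGAA occurred in 1 of 8 (*Apcs*), against 8.30% of all regions. The letters GGGANTTTC, a strict form of the NF-kappaB site, occurred in 0 of 8, against 1.11%, and other forms were not searched. These are matches of letters in a short window on both strands and say nothing of binding.

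The messages differed widely in level and in how far they ranged. Per kilobase of transcript, the mean over 18 mice was 97329 normalized counts for *Hp* and 79870 for *Hpx*, followed by 33737 for *Orm1* and 10919 for *Saa1*. *Crp* (7460), *Apcs* (6337) and *Saa2* (6269) lay close together, and their ranges over the mice overlapped. *Lcn2* (3311), *Orm2* (2076) and *Saa3* (419.4) were the lowest. *Hp*, *Orm1*, *Hpx*, *Crp* and *Apcs* moved least, with 2.0-fold between the highest and the lowest mouse for *Hp*, 2.21-fold for *Orm1*, 2.29-fold for *Hpx*, 2.25-fold for *Crp* and 2.57-fold for *Apcs*. The range was 27.7-fold for *Saa2*, 21.2-fold for *Saa1*, 18.3-fold for *Lcn2*, 9.40-fold for *Saa3* and 5.61-fold for *Orm2*. Together the 10 genes made up 0.842% ± 0.217 (SD, n = 4) of the total normalized count in pair-fed WT mice and 1.07% ± 0.0868 (SD, n = 5) in pair-fed KO mice. The share was 0.811% ± 0.0852 (SD, n = 5) in WT mice on ethanol and 1.14% ± 0.127 (SD, n = 4) in KO mice on ethanol, where it was 1.30% in mouse 1 and 0.995% to 1.13% in the other 3. *Hp* and *Hpx* held 75.3% to 83.6% of that sum in every mouse, so the sum mostly reports these 2 genes. In a whole-liver sample, more cells of a type and more RNA per cell cannot be told apart.

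**Figure D1:**
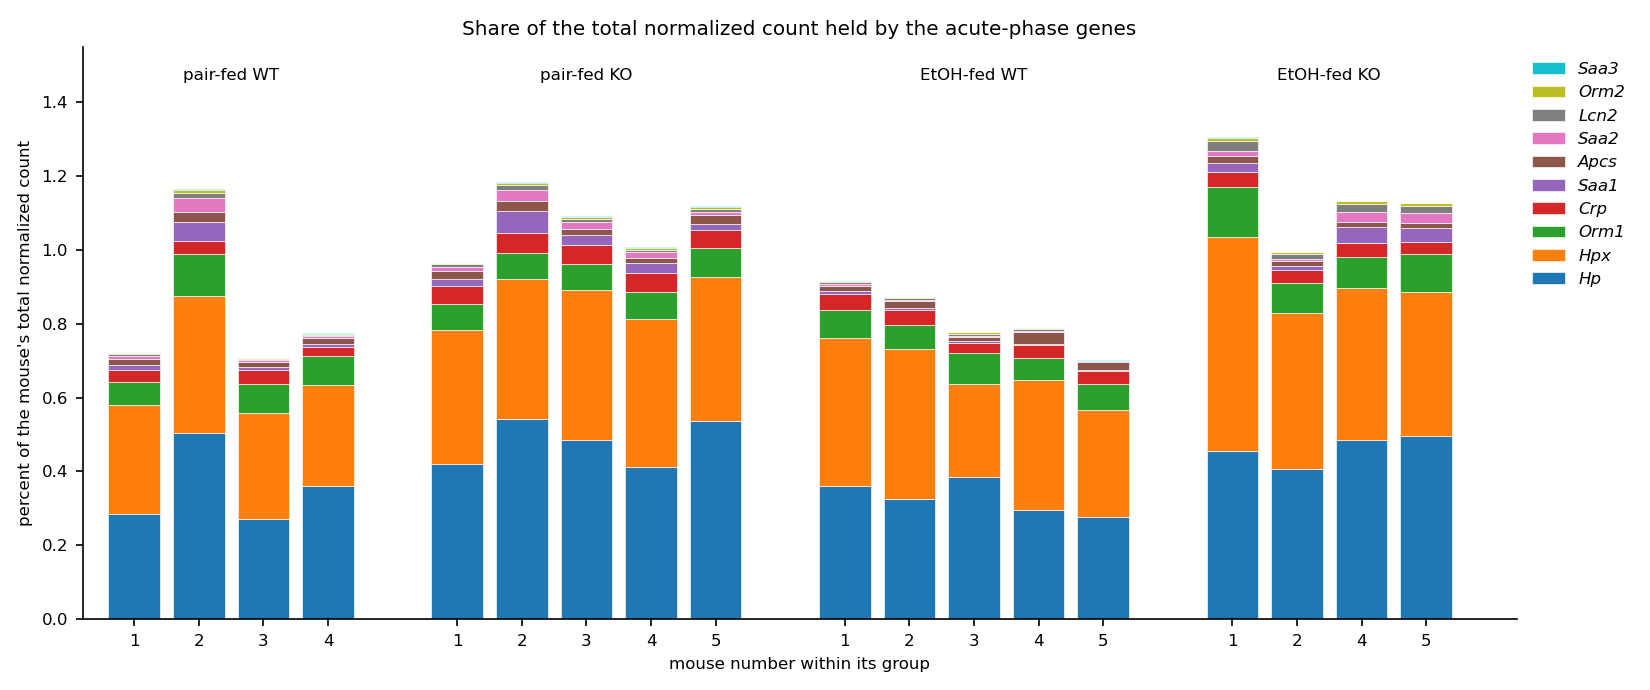
Share of each mouse's total normalized count (percent, y axis) held by the 10 acute-phase genes, stacked by gene, with 1 bar per mouse ordered by group (x axis, mouse number). *Hp* and *Hpx* fill at least 75.3% of every bar, and the EtOH-fed KO bars (0.995% to 1.30%) all stand above the EtOH-fed WT bars (0.701% to 0.917%).

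The first comparison asked how the livers of ethanol-fed mice differed when *Apoe* was absent. *Saa1*, *Saa2*, *Orm2* and *Lcn2* were higher in EtOH-fed KO mice than in their WT counterparts, by 2.95-fold to 6.30-fold on the geometric scale, and none of the 10 genes was lower by the test. Groups were compared by limma on log2(normalized count + 1) over all 15052 genes, and a gene was called at a Benjamini-Hochberg adjusted p under 0.05. Of all genes tested, 4.25% were called higher and 0.445% lower, so the members' 4 of 10 stand against that background. The median log2 fold change of the 10 was 0.49, against 0.11 over all genes, and another scaling (median-of-ratios size factors) lowered the log2 fold changes of this comparison by about 0.13. On that scale the 4 calls held, at 2.29 for *Saa1*, 2.53 for *Saa2*, 1.43 for *Orm2* and 2.13 for *Lcn2* (limma adjusted p from 0.00404 to 0.00778).

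*Saa1* encodes a serum amyloid A that travels on high-density lipoprotein. Its normalized counts were 7462, 3299, 13694 and 12254 in EtOH-fed KO mice 1, 2, 4 and 5, and 2429, 2311, 1203, 1244 and 908 in EtOH-fed WT mice 1 to 5. The lowest KO mouse lay above the highest WT mouse. The means were 9177 ± 4739 (SD, n = 4) and 1619 ± 699 (SD, n = 5), with a log2 fold change of 2.42 (SE 0.38, limma adjusted p = 0.00387). *Saa2*, the near-identical neighbour, stood at 4622, 2096, 8855 and 8194 in the KO mice and at 1345, 1248, 728, 654 and 455 in the WT mice, again without overlap. Its log2 fold change was 2.65 (SE 0.40, limma adjusted p = 0.00308). Within the KO group both genes were lowest in mouse 2 and highest in mouse 4, a spread of 4.15-fold for *Saa1*.

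*Saa3*, which is made by macrophages and fat cells as well as by hepatocytes, did not follow its neighbours. It stood at 252, 148, 131 and 161 in EtOH-fed KO and at 161, 234, 81, 177 and 121 in EtOH-fed WT mice, so the groups overlapped. The log2 fold change was 0.20 (95% interval −0.43 to 0.83, limma adjusted p = 0.778), and 0.01 without KO mouse 1.

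*Orm2* encodes an orosomucoid, a small lipid- and drug-binding glycoprotein. Its normalized counts were 3201, 1855, 2870 and 2511 in EtOH-fed KO and 1157, 1000, 1131, 650 and 571 in EtOH-fed WT mice, so that the lowest KO mouse again exceeded every WT mouse. The means of 2609 ± 576 (SD, n = 4) and 902 ± 274 (SD, n = 5) gave a log2 fold change of 1.56 (SE 0.22, limma adjusted p = 0.00238). *Orm1*, the more abundant copy, was 43509, 25732, 27175 and 33851 in KO and 24634, 21302, 26351, 19674 and 22738 in WT mice. KO mouse 2 lay below WT mouse 3, and the log2 fold change of 0.48 (SE 0.15) did not pass (limma adjusted p = 0.0988). *Orm3*, the least abundant orosomucoid, which is not among the 10, rose from 370 ± 302 (SD, n = 5) to 1334 ± 263 (SD, n = 4), a log2 fold change of 2.14 (limma adjusted p = 0.00836).

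*Lcn2* stood at 8270, 4196, 6477 and 6633 in EtOH-fed KO and at 1967, 1166, 1889, 1895 and 452 in EtOH-fed WT mice. All KO values were above all WT values, and the difference on the log2 scale was 2.26 (SE 0.36, limma adjusted p = 0.00456). Haptoglobin message (*Hp*) was 147031, 131036, 156193 and 160371 in KO and 116589, 104688, 124176, 95087 and 89573 in WT mice. These groups did not overlap either, but the smaller log2 fold change of 0.49 (SE 0.15) did not pass the test (limma adjusted p = 0.0766). In all, 5 of the 10 genes did not overlap between the groups, against 8.13% of all genes.

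Hemopexin message (*Hpx*) was 187298, 136915, 133616 and 125297 in EtOH-fed KO and 128896, 131180, 81846, 113681 and 93548 in EtOH-fed WT mice, with a log2 fold change of 0.41 (limma adjusted p = 0.235). Without KO mouse 1, the highest of the 18, it was 0.29. *Apcs* had a log2 fold change of −0.30 (95% interval −0.77 to 0.17, limma adjusted p = 0.518). *Crp* was level at 11662 ± 1399 (SD, n = 4) in KO and 11570 ± 1887 (SD, n = 5) in WT mice, with a log2 fold change of 0.02 (95% interval −0.27 to 0.30), which becomes −0.11 with median-of-ratios size factors.

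Leaving out EtOH-fed KO mouse 1 kept the 4 calls, with log2 fold changes of 2.45 for *Saa1*, 2.71 for *Saa2*, 1.45 for *Orm2* and 2.12 for *Lcn2* (limma adjusted p from 0.0105 to 0.0161). *Hp* (0.50, adjusted p = 0.108) and *Orm1* (0.33, adjusted p = 0.207) were not called without it either. With each of the 9 mice left out in turn, the 4 genes stayed called in every fit.

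**Figure D2:**
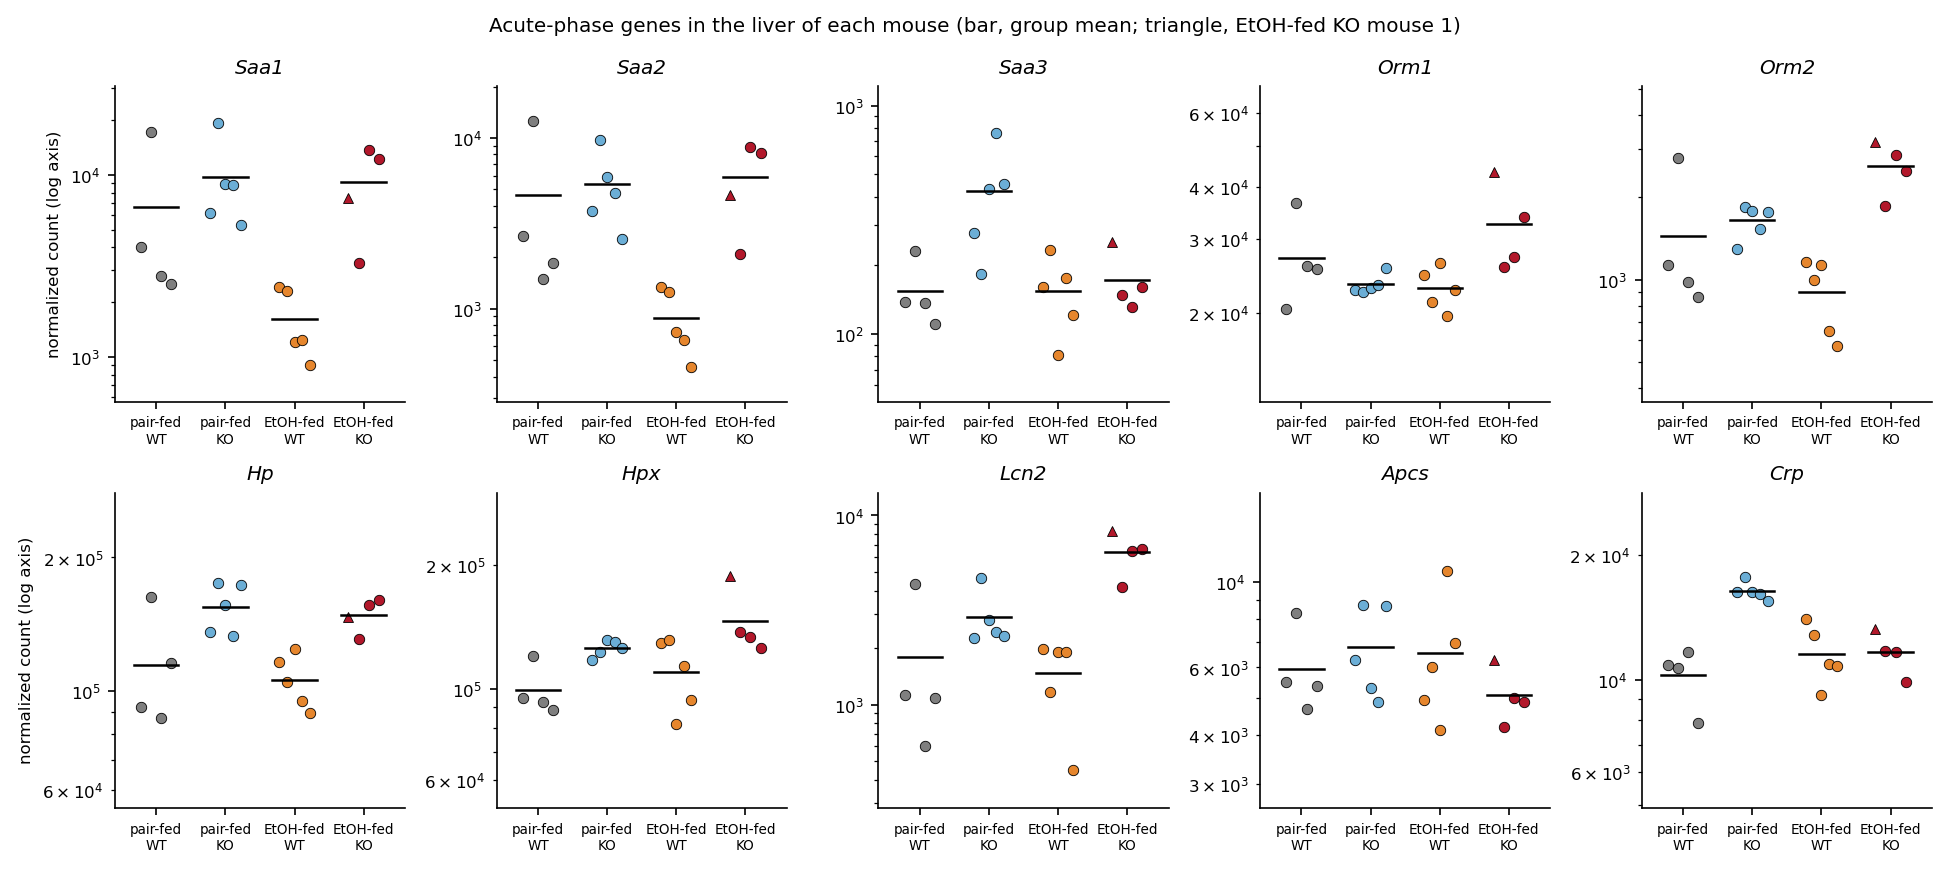
Normalized count (log y axis, its range set per gene) of the 10 acute-phase genes in each of the 18 mice, by group on the x axis; each point is a mouse, the bar is the group mean, and the triangle is EtOH-fed KO mouse 1, which went against its label as female. EtOH-fed KO points lie above all EtOH-fed WT points for *Saa1*, *Saa2*, *Orm2*, *Hp* and *Lcn2*, and pair-fed KO points above all pair-fed WT points for *Crp*.

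The second comparison asked whether the genotype alone set these messages apart without ethanol. In pair-fed mice, *Crp* alone of the 10 was called, higher in KO, where 0.870% of all genes were called higher and 0.864% lower. *Crp* was 16334, 17685, 16305, 16168 and 15488 in pair-fed KO mice 1 to 5 and 10896, 10672, 11706 and 7867 in pair-fed WT mice 1 to 4. The lowest KO mouse lay above the highest WT mouse, and the log2 fold change was 0.69 (SE 0.11, limma adjusted p = 0.00905), with adjusted p at most 0.0310 with any mouse left out. It was also the only one of the 10 whose pair-fed groups did not overlap, as 7.03% of all genes did. The median log2 fold change of the 10 genes was 0.55, against −0.005 over all genes.

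The serum amyloid A genes were uneven in pair-fed mice. *Saa1* was 3993, 17227, 2795 and 2506 in WT mice 1 to 4 and 6172, 19223, 8858, 8837 and 5281 in KO mice. Mouse 2 of each group was far above the rest of its own group, and the same 2 mice led *Saa2* (12596 and 9750) and *Lcn2* (4315 and 4671). The log2 fold change of *Saa1* was 0.89 (SE 0.48, limma adjusted p = 0.323), and without WT mouse 2 it was 1.51 (adjusted p = 0.0609). For *Saa2* it was 0.64 (limma adjusted p = 0.503). *Saa3*, in contrast, was 277, 184, 432, 761 and 453 in KO and 138, 231, 137 and 111 in WT mice, with KO mouse 2 alone inside the WT range. Its log2 fold change was 1.34 (SE 0.33, limma adjusted p = 0.0550), and without KO mouse 2 it was 1.6 (adjusted p = 0.0131).

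*Lcn2* was 2260, 4671, 2812, 2419 and 2295 in pair-fed KO and 1129, 4315, 606 and 1083 in pair-fed WT mice, a log2 fold change of 1.05 (SE 0.41, limma adjusted p = 0.175). Here WT mouse 2 decided the call: without it the log2 fold change was 1.62 (limma adjusted p = 0.0107), and *Orm2* also passed, at 0.73 (limma adjusted p = 0.0358) in place of 0.35 with all mice. *Hp* (0.47) and *Hpx* (0.35) were higher on average in KO mice without passing (limma adjusted p = 0.201 and 0.190). *Apcs* (0.18) and *Orm1* (−0.18) differed by less than the spread between mice.

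The third comparison asked how ethanol changed the messages in WT mice. *Saa2* and *Saa1* fell and no other member was called, where 6.19% of all genes were called higher and 6.52% lower. All 5 EtOH-fed WT mice, at 908 to 2429 for *Saa1*, lay below the 4 pair-fed WT mice, at 2506 to 17227, and *Saa2* likewise ran from 455 to 1345 against 1490 to 12596. Of all genes, 14.4% did not overlap between these groups, and of the 10 it was these 2. The log2 fold change was −1.93 for *Saa2* (SE 0.51, limma adjusted p = 0.0260) and −1.64 for *Saa1* (SE 0.47, limma adjusted p = 0.0375). Without pair-fed WT mouse 2 they were −1.25 (limma adjusted p = 0.0341) and −1.02 (limma adjusted p = 0.0570). The call for *Saa1* was also lost without pair-fed WT mouse 1 or without EtOH-fed WT mouse 3, 4 or 5 (adjusted p = 0.0634 to 0.0741), and that for *Saa2* without EtOH-fed WT mouse 4 (adjusted p = 0.0531).

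The other WT messages were not called with ethanol, and some of their intervals were wide. *Orm2* had a log2 fold change of −0.56 (95% interval −1.23 to 0.11, limma adjusted p = 0.264). *Orm1* (−0.22), *Crp* (0.17) and *Hpx* (0.14) had intervals that included 0. *Hp* (−0.08), *Apcs* (0.09), *Lcn2* (−0.04) and *Saa3* (−0.03) turned sign with single mice left out, so no direction is given for them. For *Lcn2* the 95% interval ran from −1.14 to 1.06. *Saa4*, the constitutive serum amyloid A, fell from 9676 ± 3117 (SD, n = 4) to 5242 ± 821 (SD, n = 5), a log2 fold change of −0.85 (limma adjusted p = 0.00886).

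The fourth comparison set EtOH-fed against pair-fed *Apoe* KO mice. *Lcn2*, *Orm2* and *Orm1* rose, *Crp* and *Saa3* fell, and *Saa1* and *Saa2* were not called. This was the comparison with the most calls over all genes, 16.3% higher and 6.92% lower. *Lcn2* rose from 2891 ± 1019 (SD, n = 5) to 6394 ± 1675 (SD, n = 4), a log2 fold change of 1.16 (SE 0.22, limma adjusted p = 0.00210), with the lowest EtOH-fed mouse (4196) below pair-fed mouse 2 (4671). *Orm2* rose from 1297, 1852, 1786, 1538 and 1769 to 3201, 1855, 2870 and 2511 without overlap, a log2 fold change of 0.65 (SE 0.15, limma adjusted p = 0.00835). *Orm1* rose from 22680, 22429, 23009, 23335 and 25640 to 43509, 25732, 27175 and 33851, also without overlap, a log2 fold change of 0.45 (SE 0.14, limma adjusted p = 0.0321). That of *Orm1* was 0.30 without EtOH-fed mouse 1 (adjusted p = 0.0704) and 0.32 with median-of-ratios size factors (adjusted p = 0.147), so neither was called. Its call was also lost without EtOH-fed mouse 5 (adjusted p = 0.0855) or without any of pair-fed mice 1 to 4 (adjusted p = 0.0510 to 0.0662). The calls of *Lcn2* and *Orm2* were lost when all 4 groups shared the fit (adjusted p = 0.0609 and 0.0890).

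*Crp* fell from 16396 ± 799 (SD, n = 5) to 11662 ± 1399 (SD, n = 4), with every EtOH-fed mouse (9878 to 13298) below every pair-fed mouse (15488 to 17685). The log2 fold change was −0.50 (SE 0.10, limma adjusted p = 0.00252). *Saa3* fell from 421 ± 220 (SD, n = 5) to 173 ± 54.1 (SD, n = 4), a log2 fold change of −1.17 (SE 0.33, limma adjusted p = 0.0228). Without EtOH-fed mouse 1, these were −0.56 (adjusted p = 0.00166) for *Crp* and −1.36 (adjusted p = 0.0169) for *Saa3*, and *Lcn2* (1.02, adjusted p = 0.00731) and *Orm2* (0.54, adjusted p = 0.0265) stayed called. The call for *Saa3* was lost without pair-fed mouse 3 or without EtOH-fed mouse 2, 4 or 5 (adjusted p = 0.0503 to 0.0640). *Saa1* (−0.11, 95% interval −0.97 to 0.75) and *Saa2* (0.09, 95% interval −0.78 to 0.96) had wide intervals. *Hp* (−0.05) and *Hpx* (0.20) were not called, nor was *Apcs* (−0.38, limma adjusted p = 0.133). Of the 10 genes, 3 did not overlap between these groups (*Orm1*, *Orm2* and *Crp*), against 20.0% of all genes.

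**Figure D3:**
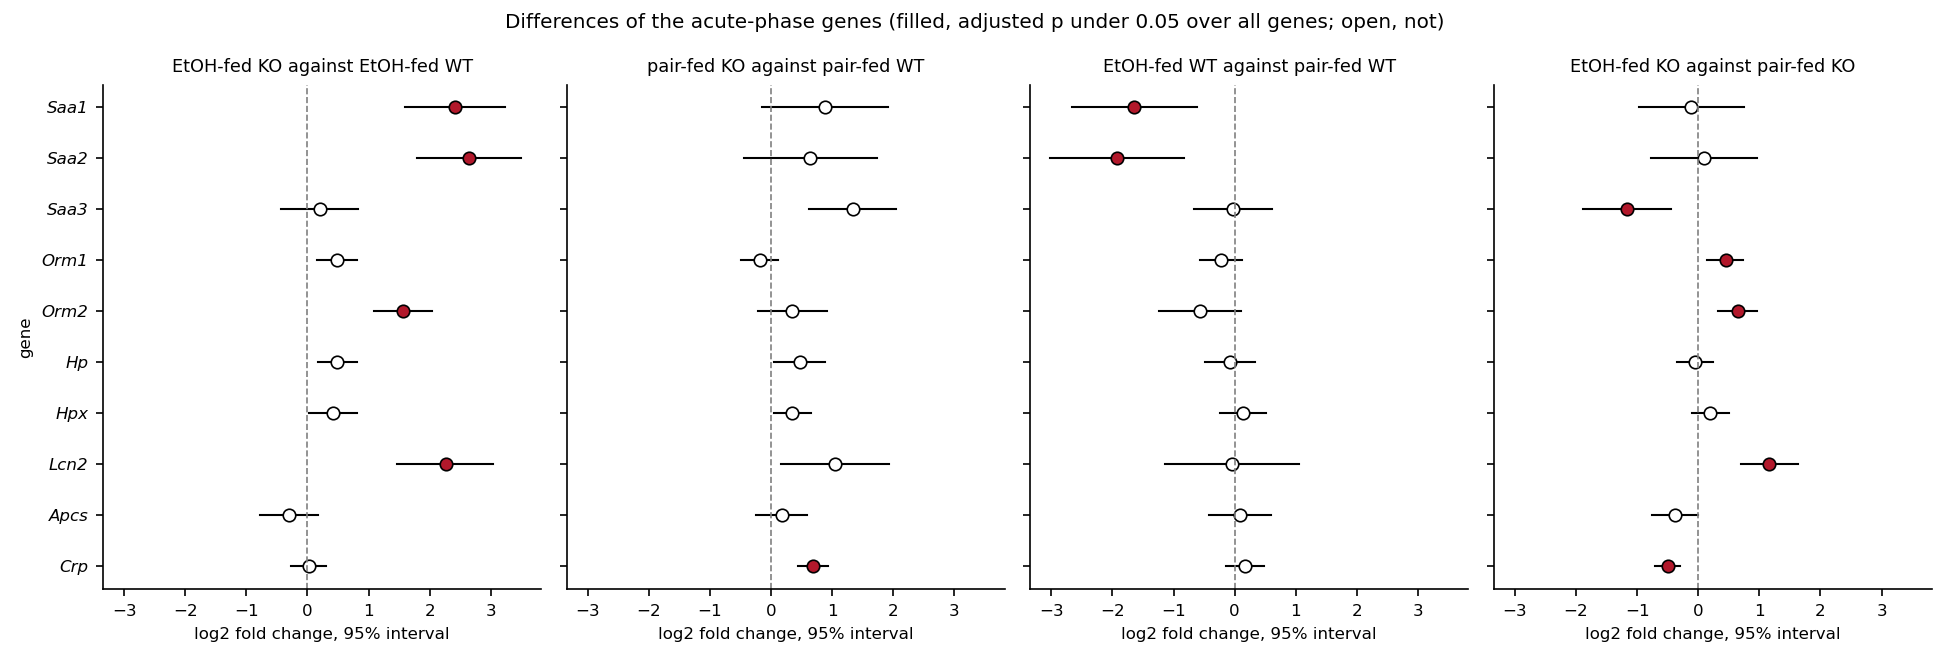
Log2 fold change (x axis) of each acute-phase gene (y axis) in the 4 comparisons, with the 95% interval from limma as a line; filled points have an adjusted p under 0.05 over all 15052 genes. The filled points are *Saa1*, *Saa2*, *Orm2* and *Lcn2* in EtOH-fed KO against EtOH-fed WT, *Crp* in pair-fed KO against pair-fed WT, *Saa1* and *Saa2* in EtOH-fed against pair-fed WT, and *Saa3*, *Orm1*, *Orm2*, *Lcn2* and *Crp* in EtOH-fed against pair-fed KO.

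Whether the response to ethanol differed between the genotypes was tested as the interaction in a fit of all 18 mice, in which 2.60% of all genes were called positive and 0.239% negative. Of the 10 genes, *Crp* was called. Its response was 0.17 in WT and −0.50 in KO mice on the log2 scale, and the difference of −0.67 (SE 0.18, limma adjusted p = 0.0455) lost its call in 14 of the 18 fits with 1 mouse left out (adjusted p up to 0.116, without pair-fed WT mouse 4). It stayed called without pair-fed WT mouse 3, EtOH-fed WT mouse 3 or 5, or EtOH-fed KO mouse 1. In the last of these, it was −0.73 (adjusted p = 0.0321). For *Saa2* the interaction was 2.01 (95% interval 0.48 to 3.55, limma adjusted p = 0.155), for *Saa1* 1.53 (95% interval 0.07 to 2.99, adjusted p = 0.283), for *Orm2* 1.21 (95% interval 0.41 to 2.01, adjusted p = 0.0981) and for *Lcn2* 1.2 (95% interval −0.10 to 2.51, adjusted p = 0.349). The fall of *Saa1* and *Saa2* with ethanol in WT mice is therefore not shown to differ from the response of KO mice. *Saa3* had an interaction of −1.14 (adjusted p = 0.234), *Orm1* of 0.66 (adjusted p = 0.109) and *Apcs* of −0.47 (adjusted p = 0.503), and those of *Hp* (0.03) and *Hpx* (0.07) turned sign with median-of-ratios size factors.

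Of 30 other positive acute-phase genes, all listed, 4 were higher and 1 (*Hamp2*) lower in KO than in WT mice on ethanol, and the median log2 fold change was 0.25. Those higher included *Cd14*, *Orm3* and *Il1rn*, the last of which was named after its values were seen. *Cd14*, the co-receptor for endotoxin, which myeloid cells also express, was 405 ± 83.5 normalized counts in the 4 KO and 130 ± 24.8 in the 5 WT mice (mean ± SD, as for the genes that follow, log2 fold change 1.63, limma adjusted p = 0.000807). *Hamp2*, a hepcidin paralog of the mouse, was 309 ± 72.0 in KO and 868 ± 268 in WT mice (log2 fold change −1.47, adjusted p = 0.00293). In pair-fed mice, *Lbp*, the endotoxin-binding protein, was higher in KO (4937 ± 381 against 2939 ± 285, log2 fold change 0.75, adjusted p = 0.000934) and *Hamp2* lower (log2 fold change −2.18, adjusted p = 0.000707), and the other 28 were not called. With ethanol in WT mice, 2 of the 30 rose, *Lbp* (0.56) and *Serpina3m* (0.54, and not called with median-of-ratios size factors, adjusted p = 0.0592), and 5 fell, among them *Hamp2* (−2.62) and *Saa4* (−0.85). In KO mice 3 rose with ethanol, *Orm3* (1.73), *Cd14* (1.2) and *Mt1* (0.93), and 8 fell, among them *Saa4* (−1.04), *Hamp2* (−1.91) and *Slc39a14* (−0.54). *Mt1* was not called without EtOH-fed mouse 1 (0.83, adjusted p = 0.0793) or with median-of-ratios size factors (adjusted p = 0.0847). The interaction was called for 2 of the 30, among them *Cd14* (1.72, adjusted p = 0.0156). These counts and those of the next list stand against the shares of all genes called higher and lower. The shares were 4.25% and 0.445% between the EtOH-fed genotypes and 0.870% and 0.864% between the pair-fed genotypes. With ethanol they were 6.19% and 6.52% in WT mice and 16.3% and 6.92% in KO mice, and for the interaction 2.60% and 0.239%.

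Of 18 negative acute-phase genes, whose products fall in inflammation, 1 was lower in EtOH-fed KO than in EtOH-fed WT mice. It was *Serpina6*, the corticosteroid-binding globulin, at 8714 ± 575 against 14445 ± 2755 (log2 fold change −0.71, limma adjusted p = 0.0108). *Ttr*, transthyretin, had a log2 fold change of −0.25 (adjusted p = 0.395) and *Alb*, albumin, one of −0.16 (adjusted p = 0.844). In pair-fed mice 0 of the 18 were called by limma. Ethanol in WT mice raised 4 of them, including *Apom* (0.90), *Rbp4* (0.53) and *Ahsg* (0.63), and lowered *Serpina6* (−0.58). In KO mice it raised *Ahsg* (0.49) and lowered 4, including *Serpina6* (−1.14), *Igfals* (−0.95) and *Pon1* (−0.35). *Ahsg* was not called with median-of-ratios size factors in either genotype (adjusted p = 0.0576 in WT and 0.191 in KO mice).

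The messages of the cytokines that induce these genes were scarce. Of 12 ligands, 5 were listed, and *Il6*, *Osm*, *Lif*, *Il11*, *Il22*, *Il17a* and *Ifng* were not among the genes of the table. *Il1b* was 70.5 ± 26.0 (SD, n = 4) in EtOH-fed KO and 55.4 ± 23.7 (SD, n = 5) in EtOH-fed WT mice (limma adjusted p = 0.689), and *Tnf*, listed at 0 in 1 mouse, ran from 19 to 43 and from 8 to 21 (adjusted p = 0.341). None of the 5 was called in that comparison. With ethanol, 1 of the 5 was lower in WT mice (*Ctf1*), where 6.52% of all genes were called lower. In KO mice 1 was higher with ethanol (*Clcf1*), where 16.3% of all genes were called higher. Between the EtOH-fed genotypes, 4.25% of all genes were called higher and 0.445% lower. The receptor and signalling list of 31 genes had 1 call there, close to that share. This was *Rela*, a subunit of NF-kappaB. It was higher in KO with a log2 fold change of 0.46 (limma adjusted p = 0.0209), which was 0.34 with median-of-ratios size factors (adjusted p = 0.132). *Stat3* (0.01), its feedback inhibitor *Socs3* (−0.02), the receptor chains *Il6ra* (−0.03) and *Il6st* (0.09), and *Cebpb* (−0.15) and *Cebpd* (0.16) were close to 0 and changed sign under some alternatives.

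With ethanol in KO mice, 10 of the 31 fell and 3 rose, where 6.92% of all genes fell and 16.3% rose. *Socs3* fell from 741 ± 150 to 295 ± 56.6 (log2 fold change −1.32, limma adjusted p = 0.000186), *Lifr*, a receptor chain of the interleukin-6 family, by 0.74 and *Il1r1*, the interleukin-1 receptor, by 0.88 on the log2 scale. *Il6ra* (−0.71) and *Cebpb* (−0.72) also fell, while *Rela* (0.72), *Osmr*, the oncostatin M receptor (0.99), and *Nfkb1* (0.38) rose. *Nfkb1* was not called with median-of-ratios size factors (0.25, adjusted p = 0.0804). In WT mice 2 rose, *Rela* (0.56) and *Jak1* (0.41, adjusted p = 0.0493), and 2 fell, *Il1r1* (−1.04) and *Lifr* (−0.71), where 6.19% of all genes rose and 6.52% fell. *Jak1* was not called with median-of-ratios size factors (adjusted p = 0.0552). In pair-fed mice 0 of the 31 differed by genotype in limma, where 0.870% of all genes were called higher and 0.864% lower. The interaction was called for 1 of the 31, where 2.60% of all genes were called positive and 0.239% negative. It was −0.71 for *Il1rap*, the accessory chain of the interleukin-1 receptor (limma adjusted p = 0.0260). Of 10 hepatocyte transcription factors, 0 were called by genotype in either diet. The shares of all genes called higher and lower were 4.25% and 0.445% in EtOH-fed and 0.870% and 0.864% in pair-fed mice. With ethanol in WT mice *Foxa3* and *Prox1* rose and *Foxa1* and *Foxa2* fell, and in KO mice *Foxa3* rose and *Cebpa* fell.

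Receptors that take up or answer to the members' cargo were followed as a list of 20, of which 18 were listed. Where 4.25% of all genes were called higher and 0.445% lower, 4 of these were higher in KO than in WT mice on ethanol and 0 lower by limma. They were *Hmox1*, the haem oxygenase (log2 fold change 1.49, limma adjusted p = 0.0194), the Fc receptors *Fcgr1* (1.81, adjusted p = 0.00120) and *Fcgr3* (1.0, adjusted p = 0.00904), which also bind pentraxins, and *Tlr2* (1.34, adjusted p = 0.0183). *Hmox1* ran from 6260 to 16897 in KO and from 2189 to 6142 in WT mice. *Cd163*, the receptor for haptoglobin bound to haemoglobin, was lower in pair-fed KO (94 to 203) than in pair-fed WT mice (405 to 609), with a log2 fold change of −1.91 (adjusted p = 0.000541). Between EtOH-fed groups it was −0.24 (adjusted p = 0.706), and the interaction of 1.67 was called (adjusted p = 0.0190). *Fcgr2b*, the inhibitory Fc receptor, was also lower in pair-fed KO mice (−0.63, adjusted p = 0.0318). In WT mice, ethanol raised 2 of the 18, including *Hmox1* (2.44, limma adjusted p = 2.09e-04). It lowered 2, including *Fcgr1* (−1.19, limma adjusted p = 0.00489), where 6.19% of all genes rose and 6.52% fell. In KO mice, ethanol raised 8 of the 18 and lowered 4, where 16.3% of all genes rose and 6.92% fell. The 3 raised with the lowest adjusted p were *Hmox1* (2.91), *Slc48a1*, a haem transporter (0.71), and *Fcgr3* (0.93), and *Cd163* rose by 1.40.

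Markers of other cells moved with the first comparison, in which 4.25% of all genes were called higher and 0.445% lower. Of 10 Kupffer cell markers 9 were called higher in EtOH-fed KO than in EtOH-fed WT mice, and their summed normalized count ran from 13932 to 26907 (to 22774 without KO mouse 1) against 6123 to 11133. Of 10 markers of monocytes and infiltrating macrophages 6 were higher, with sums of 8513 to 15996 against 4162 to 5898. Of 15 neutrophil markers 6 were listed and 1 (*Fpr1*) was higher, with sums of 287 to 689 (to 508 without KO mouse 1) against 240 to 306, while *Ly6g*, *Cxcr2*, *Mpo* and *Elane* were not among the listed genes. Of 10 hepatocyte markers 0 were called by limma. *Saa3* and *Lcn2* can be made by macrophages and neutrophils, and the part of these cells in the values of any member was not tested. Of 7 endothelial markers 0 were called, of 8 stellate cell markers 2 were higher (*Col3a1* and *Col1a1*), and of 5 listed cholangiocyte markers 1 was higher (*Krt19*).

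In the other comparisons the marker lists moved as well. Of all genes, 0.870% were called higher and 0.864% lower between the pair-fed genotypes. With ethanol these shares were 6.19% and 6.52% in WT mice, and 16.3% and 6.92% in KO mice. Among pair-fed mice, the Kupffer marker sums overlapped, at 9348 to 18308 in KO and 9697 to 17469 in WT mice, and 1 of the 10 markers (*Cd163*) was lower in KO. Of the infiltrating macrophage markers *Gpnmb* was higher there, and of the 7 endothelial markers 2 were lower (*Clec4g* and *Fcgr2b*). With ethanol in WT mice, where *Saa1* and *Saa2* fell, 3 of the 10 Kupffer markers fell (*Clec4f*, *Cd5l* and *Clec1b*), 4 of the 10 hepatocyte markers rose and 5 of the 7 endothelial markers rose. *Spp1*, on both the macrophage and the cholangiocyte list, and *Krt19* fell there. With ethanol in KO mice, *Lcn2* and both orosomucoid genes rose and *Saa3* and *Crp* fell. There 5 of 10 Kupffer, 4 of 10 infiltrating macrophage, 6 of 7 endothelial and 6 of 8 stellate cell markers rose. Of 6 listed neutrophil markers 1 rose (*Fpr1*), and of 5 listed cholangiocyte markers 1 rose (*Krt19*), both close to the share of all genes. Among hepatocyte markers *Cps1* rose and *Cyp2e1* fell. The part of these cell types in the members' values was not tested.

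How the members varied together was measured within groups, on deviations of log2(normalized count + 1) from the group mean over the 18 mice. Pearson's r and Spearman's rho were tested by permuting mice within groups (100000 permutations), with Benjamini-Hochberg adjustment over the 45 pairs. Of the 45 pairs, 43 had a positive r, and 11 had an adjusted permutation p under 0.05 for r, all of them positive. Pairs of other genes were not counted in this way, so these counts are not read as particular to the members. *Saa1* and *Saa2* were almost parallel (r = 0.99, permutation p = 2e-05, adjusted 9.00e-04, and rho = 0.98, permutation p = 1e-05, the smallest these permutations can give, adjusted 4.50e-04), though reads can be shared between them. *Orm2* and *Lcn2* had r = 0.81 (permutation p = 0.00501, adjusted 0.0250) and rho = 0.78 (permutation p = 0.00322, adjusted 0.0207). *Saa2* and *Lcn2* had r = 0.78 (permutation p = 0.00165, adjusted 0.0165) and rho = 0.81 (permutation p = 5.80e-04, adjusted 0.00870). The mice with more *Lcn2* than their group thus tended to have more *Orm2* and *Saa2*, though not every mouse did. *Orm2* and *Hp* had r = 0.81 (permutation p = 0.00180, adjusted 0.0165) and rho = 0.69 (permutation p = 0.00431, adjusted 0.0230). Without the 2 mice farthest from the median of the gene named first, r was 0.98 for *Saa1* with *Saa2*, 0.62 for *Orm2* with *Lcn2*, 0.61 for *Saa2* with *Lcn2* and 0.66 for *Orm2* with *Hp*. *Saa2* and *Hp* had r = 0.70 (permutation p = 0.0106, adjusted 0.0453), which was 0.47 without the 2 farthest mice. *Saa1* and *Hp* had r = 0.67 (permutation p = 0.0159, adjusted 0.0597), which did not pass and was 0.40 without the 2 farthest mice.

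For *Hpx*, only the pairs with *Saa3* and *Crp* passed for r. Its r was 0.49 with *Orm2*, 0.44 with *Saa1*, 0.43 with *Lcn2* and 0.41 with *Saa2*, and these did not pass. Whether the correlations of *Hpx* differ from each other was not tested. *Saa3* and *Hpx* had r = 0.73 (permutation p = 1.90e-04, adjusted 0.00427) and rho = 0.77 (permutation p = 2.70e-04, adjusted 0.00607), and r was 0.91 without the 2 mice farthest from the median of *Saa3*. *Hpx* and *Crp* had r = 0.71 (permutation p = 0.0111, adjusted 0.0453), but rho = 0.59 did not pass (permutation p = 0.0319, adjusted 0.131), and r was 0.58 without the 2 mice farthest in *Hpx*. *Saa3* and *Saa1* had r = 0.18 (permutation p = 0.471, adjusted 0.606) and rho = 0.29 (permutation p = 0.261). *Hp* and *Crp* had the lowest r, −0.16 (permutation p = 0.663, adjusted 0.728).

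**Figure D4:**
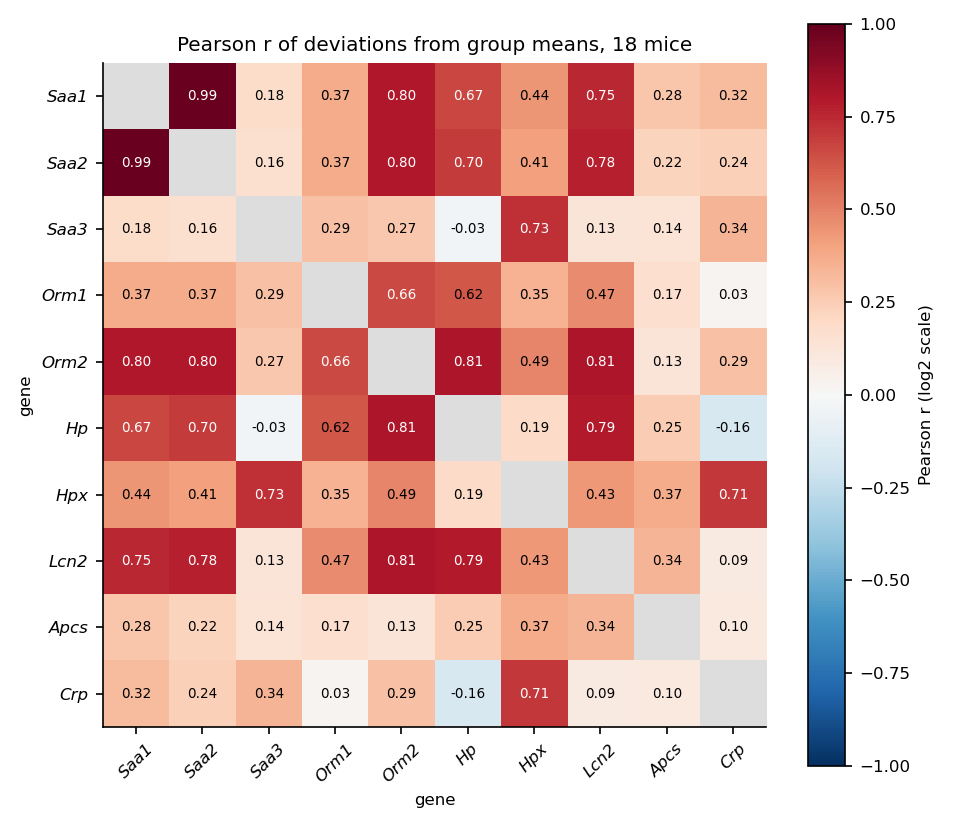
Pearson r (colour scale and number) between every pair of the 10 acute-phase genes (both axes), computed over 18 mice on deviations of log2(normalized count + 1) from group means. *Saa1*, *Saa2*, *Orm2*, *Hp* and *Lcn2* have r from 0.67 (*Saa1* with *Hp*, which did not pass) to 0.99. For *Hpx* the pairs with *Saa3* (0.73) and *Crp* (0.71) passed, and *Apcs* reaches at most 0.37.

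Outside the 10 genes, the closest patterns over all 18 mice were named by Pearson r of log2(normalized count + 1), as a description that includes the group differences. *Saa1* was most like *Ldhd* (r = 0.853, and 0.69 within groups) and *Lrg1*, another acute-phase glycoprotein gene (0.824, and 0.73), followed by *Parp14* (0.819). *Saa2* had the same 3, led by *Parp14* (0.832). *Hp* was closest to *Tmem176a* (0.840), *Lrg1* (0.827, and 0.80 within groups) and *Cnbd2* (0.787). *Lcn2* was closest to *Tmem176a* (0.842), *Serpina3n* (0.833, and 0.77 within groups) and *Ikbke* (0.818). For *Orm2* the 3 were *Map1lc3b* (0.833), *Coq8b* (0.824) and *Sh3bp2* (0.823), and for *Orm1* *Lrmda* (0.773), *Pkig* (0.771) and *Bbln* (0.767). *Hpx* was closest to *Lbp* (0.850, and 0.78 within groups), *Plbd2* (0.849) and *Bcr* (0.838), and *Saa3* to *Mtmr14* (0.831), *Sqor* (0.801) and *Nfix* (0.785). *Crp* had the closest match of all, *Clcc1* (0.918, and 0.85 within groups), and then *F2*, prothrombin (0.904), and *Trf*, transferrin (0.901). *Apcs* had the weakest, *Rrbp1* (0.674), *Xrcc5* (0.672) and *BC065397* (0.667).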

How the data were processed

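Liver RNA of 18 mice was analysed. Per the labels and methods, the authors prepared polyA RNA libraries, used Trimmomatic to trim, HISAT2 to align to GRCm38, featureCounts to count and DESeq2 to test (versions are not given in the sources used here). They deposited 1 table, whose value per mouse is a signal: rounded read counts per gene after scaling, which gave every mouse almost the same total. Its columns of fold changes and p-values from the authors' comparisons were not used. Of 15247 lines, 195 repeat a gene with identical values, which left 15052 genes with a mean of at least 12.1. Whole reads could be resolved in 8 of 18 mice, so no count test was run, and the depth of the other mice is unknown. The resolved mice were spread unevenly. In EtOH-fed KO mice 2, 4 and 5, 1 read was worth 2.39, 4.09 and 3.84 normalized counts. These mice had 56, 125 and 68 genes at 0. EtOH-fed KO mouse 1 (4 genes at 0) and all EtOH-fed WT mice (2 to 17 genes at 0) were not resolved. The part of depth in the differences between these groups was not tested.

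Groups were compared with limma 3.58.1 (R 4.3.3) on log2(value + 1), with a pseudocount of 1 and a mean-variance trend, two-sided, and p-values were adjusted over all genes by Benjamini-Hochberg. A fold change on this scale understates that of low genes. Each fit held the groups compared, and the interaction all 18 mice. Mice were grouped by their labels. The p-values weigh the difference between groups against the spread between these mice, with each gene's variance drawn towards a trend over all genes. Alternatives tried were pseudocounts of 0.1 and 10, scaling by median-of-ratios size factors, genes with 10 or more in every mouse, quality weights per mouse, a fit of all 4 groups, the mouse number as a block, and leaving out each mouse. The block fits kept only mice whose number occurred in every group compared. The 10 members were named in every comparison. Of each other list, up to 3 genes a direction with the lowest adjusted p were named, with 16 preset genes (such as *Stat3*, *Socs3* and *Cd163*). A gene of these lists that met the rule is not reported here by name. The genes named first in the lists of likeness have the highest r over 18 mice. The members and lists were chosen with earlier results of these data known. Positions are from GENCODE M21 (15040 genes placed), promoters from RefSeq (GRCm38.p6), and identities from Biopython 1.88 alignments. Correlations used numpy 2.4.6, pandas 2.3.3 and scipy 1.17.1 (Python 3.11.15), and figures matplotlib 3.10.9. The scripts were tested on simulated data.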

Additional observations from a re-analysis of the deposited data

Results flagged for a closer look

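*Orm1* and *Orm2* were picked out because the response to ethanol had opposite signs in the genotypes. *Orm1* had log2 fold changes of −0.22 in WT and 0.45 in *Apoe* KO mice, and the genotype difference was likewise opposite, at −0.18 in pair-fed and 0.48 in EtOH-fed mice. The interaction, which tests both, was 0.66 (limma adjusted p = 0.109) and did not pass. *Orm2* had log2 fold changes of −0.56 in WT and 0.65 in KO mice with ethanol, with an interaction of 1.21 (limma adjusted p = 0.0981), which did not pass either. *Crp* was picked out by its interaction of −0.67 (limma adjusted p = 0.0455), from 0.17 in WT and −0.50 in KO mice.

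Single mice stood apart from their group beyond Dixon's 95% value in 7 of 40 groups of normalized counts (10 genes in 4 groups), and in 0 of 40 on the log2 scale that was tested by limma. About 2 would be flagged in 40 independent groups of normally distributed values. Most flags came from mouse 2 of the pair-fed groups, in genes that vary together, so no excess over chance is read from them. Dixon's value is the gap to the nearest mouse over the range of the group. Pair-fed WT mouse 2 was high in *Saa1* (0.899), *Saa2* (0.893), *Orm2* (0.859) and *Lcn2* (0.859). Pair-fed KO mouse 2 was high in *Saa1* (0.743) and *Lcn2* (0.771), and pair-fed KO mouse 5 in *Orm1* (0.718).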

How the results depend on the processing

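The 4 calls between the EtOH-fed genotypes stayed 4 under size factors, the value filter, both pseudocounts, all groups in the fit, quality weights and each mouse left out. Whether the mouse numbers pair the mice was not settled. Correlations of the deviations of same-numbered mice ran from −0.217 to 0.230, and not all were over 0.1. Between the EtOH-fed genotypes they were 0.188, −0.0242, 0.230 and 0.144, against −0.156 to 0.138 for mice of different numbers. In the other comparisons they ran from −0.217 to 0.159, against −0.34 to 0.34. The block fits also left out mice whose number was missing from a group compared. These were EtOH-fed WT mouse 3 (EtOH-fed genotypes), pair-fed KO mouse 5 (pair-fed genotypes), EtOH-fed WT mouse 5 (diet in WT) and pair-fed KO mouse 3 (diet in KO). The interaction kept mice 1, 2 and 4 of each group. The effect of the block was not separated from that of the mice left out. With the replicate block, 6 members were called between the EtOH-fed genotypes (*Orm1* and *Hp* added) and 3 between the pair-fed genotypes (*Saa1* and *Lcn2* added), while *Saa3* lost its call between the diets in KO mice (adjusted p = 0.0532). In pair-fed mice, 2 were called in place of 1 with a pseudocount of 10, with all 4 groups in the fit and with quality weights (*Saa3* added), and 1 to 3 with a mouse left out. Between the diets, 0 to 2 were called in WT mice with a mouse left out, against 2. In KO mice 3 to 5 were called with a mouse left out, and 3 with all groups in the fit, against 5. The interaction gave 2 with quality weights (*Orm1* added) and 0 to 1 with a mouse left out. The causes were not tested.

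Signs turned only for differences that were not called. Between the EtOH-fed genotypes, with the replicate block, *Saa3* was −0.009, *Crp* −0.059 and *Stat3* −0.052. The fit without EtOH-fed WT mouse 3 gave the same values. Size factors gave −0.11 for *Crp*, −0.12 for *Stat3* and −0.035 for *Il6st*. Quality weights gave −0.02 for *Crp*, −0.087 for *Stat3* and 0.12 for *Cebpb*. With a mouse left out, *Saa3* ran from −0.009 to 0.37, *Crp* from −0.059 to 0.096, *Stat3* from −0.10 to 0.11, *Socs3* from −0.10 to 0.087, *Il6ra* from −0.17 to 0.12, *Cebpb* from −0.44 to 0.12 and *Cebpd* from −0.055 to 0.44. For the diet in WT mice, *Saa3* was 0.02 and *Orm3* −0.061 with quality weights. With the block *Saa3* was 0.039 and *Lcn2* 0.34, the values also given by the fit without EtOH-fed WT mouse 5. With a mouse left out, *Saa3* ran from −0.20 to 0.18, *Hp* from −0.19 to 0.11, *Lcn2* from −0.42 to 0.52, *Apcs* from −0.10 to 0.26 and *Orm3* from −0.13 to 0.66. For the diet in KO mice, *Saa2* was −0.038 with size factors. With a mouse left out, *Saa1* ran from −0.37 to 0.31, *Saa2* from −0.17 to 0.52 and *Hp* from −0.10 to 0.008. The interaction with size factors was −0.12 for *Hp* and −0.075 for *Hpx*, and −0.018 for *Hpx* with the block. With a mouse left out it ran from −0.16 to 0.14 for *Hp* and from −0.061 to 0.14 for *Hpx*. Depth limits the low messages most, since 1 read was worth up to 5.75 normalized counts.

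Some calls of genes on the other lists were also lost. With the replicate block they were *Jak1* (adjusted p = 0.0660), *Rbp4* (0.0869) and *Ahsg* (0.0763) for the diet in WT mice, *Cebpb* (0.0873), *Nfkb1* (0.0532), *Pon1* (0.0548) and *Ahsg* (0.0959) for the diet in KO mice, and the interaction of *Cd163* (0.148). With 1 mouse left out, calls were lost for *Rela*, *Hmox1* and *Tlr2* between the EtOH-fed genotypes (adjusted p up to 0.0642) and for *Fcgr2b* between the pair-fed genotypes (0.119). For the diet they were lost for *Lbp*, *Serpina3m*, *Jak1*, *Rbp4*, *Ahsg* and *Serpina6* in WT mice (up to 0.126) and for *Mt1*, *Cebpb*, *Osmr*, *Nfkb1* and *Ahsg* in KO mice (up to 0.101). The interactions of *Cd14* (0.0505) and *Il1rap* (up to 0.0686) were lost likewise. A fit of all 4 groups lost *Mt1* (0.0557) and *Cebpb* (0.129) in KO mice, the filter at 10 lost *Ahsg* in both genotypes (0.0523 in WT and 0.0515 in KO), a pseudocount of 0.1 lost *Jak1* (0.0524) and one of 10 lost *Ahsg* in KO mice (0.0506).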
